A study of Homo sapiens with 8 samples.

Results

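The comparison described here is the addition of AX-0085, a kinase inhibitor known by its code name, to A549 cells that had already been treated with interferon-gamma (IFN-γ). A549 is an established line from a human lung adenocarcinoma, and all libraries came from this single line. The 4 libraries compared were chosen by their labels alone, 2 from cells given IFN-γ without AX-0085 and 2 from cells given both, out of 8 libraries in 4 groups. IFN-γ was given first, at 20 ng per the labels, for 24 h, and AX-0085 was then added to 0.5 μM for another 24 h, so the compound met cells in which the response to IFN-γ had been started. The other groups, untreated cells and cells given AX-0085 alone, serve here as the background and as the test of whether the change differed with IFN-γ. A single dose and a single time were measured, and the labels name no vehicle for the libraries without AX-0085. The members of the comparison are all expressed genes, which were 15066 of the 60664 genes in the table after edgeR's expression filter.

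IFN-γ binds a receptor made of IFNGR1 and IFNGR2, to which the kinases JAK1 and JAK2 are attached. These activate STAT transcription factors, which enter the nucleus and bind the gamma-activated site (GAS) of target promoters, and a second wave of targets is switched on through the interferon-stimulated response element (ISRE) by interferon regulatory factors. In tumour cells the targets include the genes of antigen presentation and CD274, which encodes the checkpoint ligand PD-L1. Growth factor receptors act on other promoters, through ERK and the AP-1 factors, and the state of the actin cytoskeleton acts through YAP and TEAD. The genes below are grouped by these pathways and by the wider programs of an airway epithelial cell.

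To show what these binding motifs look like in the genes described, short promoter stretches are given from RefSeq (assembly GRCh38.p14), 5′ to 3′ on the strand of the gene, with motif matches in capitals. The motifs searched on both strands of the 250 bases before each start were GAS (TTCNNNGAA), the ISRE core (GAAA, any 2 bases, GAAA), AP-1 (TGANTCA) and TEAD (CATTCC), and neighbouring ISRE matches can overlap, as in CD274. The first 4 stretches hold ISRE or GAS matches of genes from the interferon groups, with an AP-1 match also in GBP3, and the last 2 hold TEAD matches of CCN2, from the YAP and TEAD group, and an AP-1 match of IL11, a cytokine gene.
GBP1 promoter, chr1:89065308-89065353, minus strand: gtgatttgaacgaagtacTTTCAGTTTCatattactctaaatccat
CD274 promoter, chr9:5450316-5450443, plus strand: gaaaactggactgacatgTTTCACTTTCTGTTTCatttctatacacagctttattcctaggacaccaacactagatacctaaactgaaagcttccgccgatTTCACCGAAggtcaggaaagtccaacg
GBP3 promoter, chr1:89022867-89022899, minus strand: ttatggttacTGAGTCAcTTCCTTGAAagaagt
PSMB10 promoter, chr16:67936851-67936889, minus strand: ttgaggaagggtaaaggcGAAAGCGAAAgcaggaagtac
CCN2 promoter, chr6:131951444-131951559, minus strand: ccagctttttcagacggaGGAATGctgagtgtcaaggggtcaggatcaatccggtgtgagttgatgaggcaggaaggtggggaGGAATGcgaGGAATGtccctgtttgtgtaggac
IL11 promoter, chr19:55370535-55370577, minus strand: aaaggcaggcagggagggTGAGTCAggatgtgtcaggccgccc

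The ISRE core was present in 2.31% of the 10670 tested genes with a RefSeq promoter and in 3.07% of all 27305 promoters. It was present in 43 of the 863 promoters of genes that fell (4.98%), in 22 of the 218 whose log2 fall was over 2 (10.1%), and in 19 of the 1609 promoters of genes that rose (1.18%). Among tested genes of the antiviral group, 13 of 27 promoters held it (48.1%), and 5 of 15 in the MHC class I group (33.3%). GAS was present in 5.33% of tested promoters, in 6.84% of those of genes that fell and in 4.16% of those of genes that rose. AP-1 was present in 4.0%, 5.68% and 4.1% in the same order, and TEAD in 9.36%, 11.2% and 8.33%. In the 218 promoters of genes whose log2 fall was over 2, GAS was present in 7.8%, AP-1 in 8.26% and TEAD in 12.4%. TEAD letters were present in 6 of 18 promoters of the YAP and TEAD group (33.3%). These are matches of letters in a short window and not measured binding.

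Library totals were 20672828 and 25849811 counts in the IFN-γ group and 29978251 and 22230752 counts in the group with both, so that 3 counts amounted to 0.0959 to 0.158 CPM (library-size-scaled counts, with TMM factors). No source used here states that the 2 libraries of a group came from separate cultures, so the p-values measure the spread between these libraries, which may be technical. The mitochondrial share of counts was 1.71% and 1.82% in the IFN-γ libraries, 2.87% and 3.43% in those with both, and between 2.72% and 5.73% in the other groups. Genes with a count numbered 19354 and 20004 in the IFN-γ libraries, and 21388 and 20447 when AX-0085 was added. Their part in the results was not tested. Markers of leukocytes, endothelial cells and fibroblasts, 18 genes in all, were each listed at 0 or fell below the filter, and their summed counts per list lay between 0 and 25 in any of the 8 libraries. All 6 epithelial markers were expressed, with summed counts between 140079 and 266607. Of the 19942 protein-coding genes in the table, 3957 were listed at 0 in every library, among them RPL15 and RPL32, which every cell uses. Such a 0 is therefore no sign of absence, and IRF1, TAP1, TAP2, CXCL9, CXCL10, IDO1 and SOCS1 are among the genes that could not be measured for this reason.

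With AX-0085 on top of IFN-γ, 2485 genes were called higher and 1248 were called lower, at an adjusted p under 0.05 and a fold change over 2. Of all genes tested, 16.5% were thus called higher and 8.28% lower, 24.8% together. In bulk RNA, fewer cells of a type and less RNA per cell cannot be told apart. By the adjusted p alone, whatever the fold, 33.7% were higher and 32.8% lower (66.5% together). With 2 libraries per group, groups that do not overlap are common and add little to a call. Among 69 cytosolic ribosomal protein genes, of which 1 was called, 26 were higher and 13 lower without overlap. The median log2 fold change over all genes was 0.03, with an interquartile range from -0.45 to 0.68. Rises were longer-tailed than falls, with 904 genes up and 326 down by more than 2 on the log2 scale, and 70 up and 22 down by more than 5. They also lay at lower levels. Of the 3767 genes with the lowest mean levels 31.5% were called higher and 10.4% lower, against 4.99% and 7.19% of the 3767 with the highest. By gene type, 510 of 1702 long non-coding RNAs were higher (30.0%) and 119 lower, while among 12319 protein-coding genes 1807 were higher (14.7%) and 1050 lower. The long non-coding RNAs also lay at lower levels, with a median log2 CPM of -0.41 against 4.55. Gene type was not separated from level. Genes of 1 or a few counts in one group give the diagonal streaks at the left of the plot of change against level, where the fitted fold depends on the prior count.

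**Figure D1:**
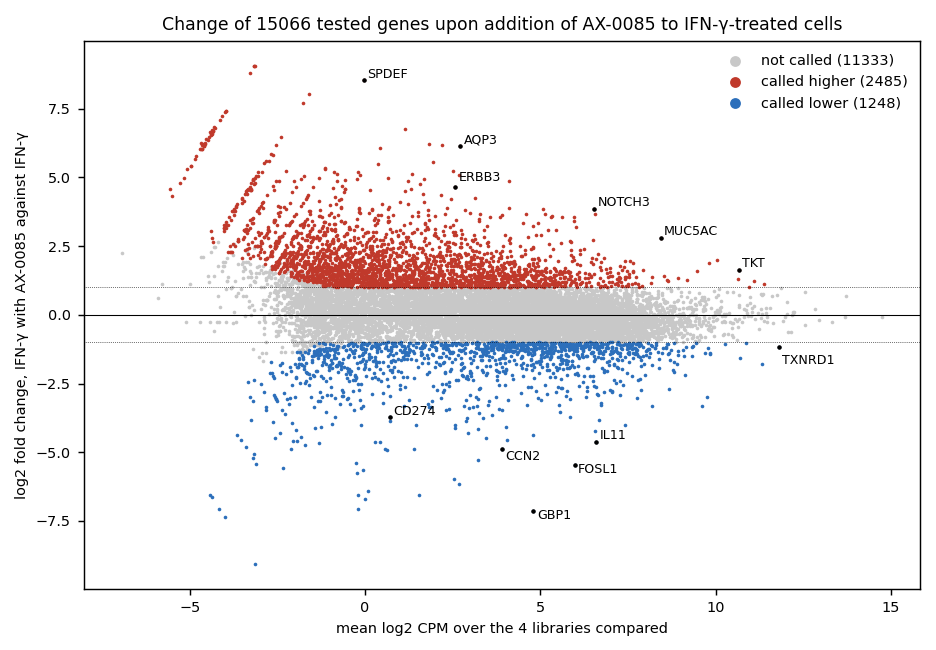
Log2 fold change of cells with both treatments against cells with IFN-γ (vertical axis) against mean log2 CPM over the 4 libraries compared (horizontal axis), 1 point per tested gene, with dotted lines at a 2-fold change. The 2485 genes called higher lie mostly at low levels, whereas TXNRD1, at the right of the plot, is among the 1248 called lower.

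Among protein-coding genes whose log2 CPM averaged 2 or more over the 4 libraries compared and whose groups did not overlap, the largest rises were those of ARRB1, AQP3, SELENBP1 and RHOV. AQP3, the water and glycerol channel of airway basal cells, had 0.898 and 0.683 CPM with IFN-γ and 53.9 and 55.6 CPM after addition of AX-0085. Its log2 fold change was 6.13 (edgeR adjusted p = 1.297e-12), or 70.0-fold. ARRB1 encodes β-arrestin 1, a scaffold that switches off G protein-coupled receptors. It had 0.475 and 0.603 CPM with IFN-γ and 39.4 and 39.7 CPM after addition of AX-0085. Its log2 fold change was 6.16 (edgeR adjusted p = 3.547e-12), although 25.9% of its exon bases overlap another annotated gene. In both genes the 2 libraries of each group lay close together and the groups were far apart. SELENBP1, a selenium-binding methanethiol oxidase, rose by 5.25 on the log2 scale and RHOV, an atypical small GTPase, by 5.07. NOTCH3, a Notch receptor of the airway epithelium, had 23.4 and 25.4 CPM with IFN-γ and 348 and 365 CPM after addition of AX-0085, a log2 fold change of 3.86 ± 0.07 (SE, edgeR adjusted p = 4.413e-13). Other large rises, from 4.66 down to 3.67, were those of ERBB3, RAB37, SLC7A7, OLFML2A, SCARA5, RAP1GAP, EPHX2, VAV3 and SLC29A4. They encode a receptor tyrosine kinase, a RAB GTPase, a transporter of basic amino acids, an olfactomedin-like matrix protein, a ferritin receptor, a Rap1 GTPase-activating protein, soluble epoxide hydrolase, a guanine nucleotide exchange factor and a monoamine transporter.

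Under the same limits on level and overlap, the largest falls were those of GBP1, CCBE1, MAFF, FOSL1 and MARCHF4. GBP1, an interferon-induced GTPase, had 337 and 323 CPM with IFN-γ and 2.33 and 2.38 CPM after addition of AX-0085, and its log2 fold change was -7.13. CCBE1, a secreted protein of lymphatic growth, had 53.5 and 53.6 CPM with IFN-γ and 0.735 and 0.764 CPM after addition of AX-0085. Its log2 fold change was -6.15 (edgeR adjusted p = 1.29e-12). FOSL1, the AP-1 subunit FRA-1, had 439 and 402 CPM with IFN-γ and 9.02 and 10.1 CPM after addition of AX-0085, which is 44.3-fold lower and a log2 fold change of -5.47 ± 0.08 (SE, edgeR adjusted p = 6.066e-14). In each of these the lowest IFN-γ library was far above the highest library with both. MAFF, a small MAF transcription factor, fell by 5.96 on the log2 scale, and MARCHF4, a membrane-bound ubiquitin ligase, by 5.29. The next 10 falls under these limits ranged from -4.88 to -4.10 and belonged to CCN2, IL11, BATF2, IL32, CDCP1, DUSP6, CXCL5, GBP3, APOL3 and HK2. They thus included cytokines, interferon-induced genes, a matricellular protein, a feedback phosphatase of ERK and a hexokinase.

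**Figure D2:**
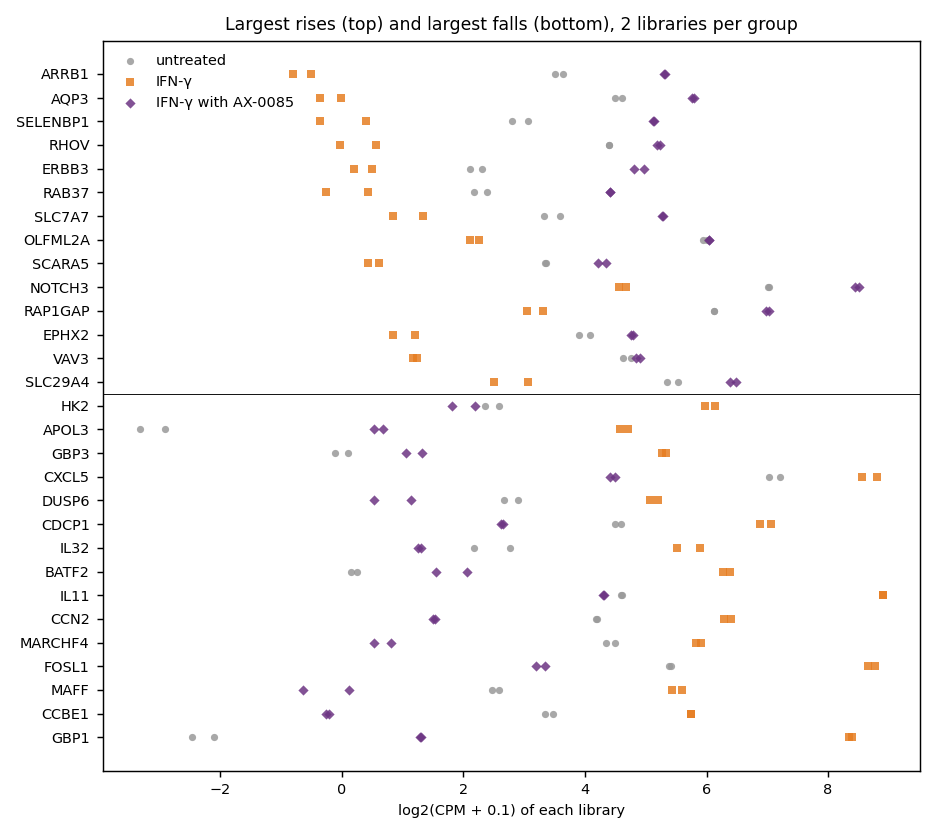
Log2(CPM + 0.1) of each library for the largest rises (top) and falls (bottom) of protein-coding genes whose log2 CPM averaged 2 or more over the 4 libraries compared, with 2 points per group for untreated, IFN-γ and IFN-γ with AX-0085. In every gene plotted the IFN-γ libraries and the libraries with both are well apart, as the choice of genes required, and the untreated libraries fall on either side of the libraries with both.

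In the IFN-γ pathway itself, the receptor and its kinases changed by less than 2-fold. IFNGR1 had 32.0 and 30.6 CPM with IFN-γ and 39.5 and 42.4 CPM after addition of AX-0085, a log2 fold change of 0.39, and IFNGR2 one of 0.37. JAK1 had a log2 fold change of -0.26 ± 0.06 (SE, edgeR adjusted p = 0.0013) and JAK2 of -0.66 ± 0.12 (SE, edgeR adjusted p = 0.000305), neither of which reached the 2-fold threshold. Of the 12 tested genes of this list 3 fell, none rose, and the median was -0.50. Among those that fell were IRF9, the DNA-binding part of an interferon-activated factor, at -2.17, of which 27.1% of exon bases overlap another gene and whose call was lost without the second IFN-γ library, and STAT3 at -1.07, whose call was lost when libraries were scaled by size alone. Negative regulators divided. SOCS3, a feedback inhibitor of JAK kinases, had 339.8 and 319 CPM with IFN-γ and 33.9 and 33.9 CPM after addition of AX-0085, a log2 fold change of -3.28 ± 0.09 (SE, edgeR adjusted p = 6.143e-12). SOCS2 and SOCS6 fell too, whereas PTPN6, which encodes the phosphatase SHP-1, rose by 2.83 from 4.12 and 3.74 CPM to 29.4 and 26.0 CPM. CISH rose by 1.35, and the other 9 tested regulators were not called.

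Among the effector genes of IFN-γ, the guanylate-binding proteins and the antiviral genes that could be tested mostly fell. All 5 tested guanylate-binding proteins, GTPases that attack intracellular pathogens, were lower, with log2 fold changes between -7.13 and -3.45. GBP3 had 38.5 and 40.3 CPM with IFN-γ and 2.40 and 1.98 CPM after addition of AX-0085. GBP5 had 176 and 274 counts in the IFN-γ libraries and 2 and 3 counts after addition of AX-0085, a ratio of 109.9-fold (95% counting interval 46.8 to 340.3). The group shares sequence, so reads may have been split among its members. Of 35 tested antiviral interferon-stimulated genes 29 fell, none rose, and the median was -2.08 against 0.03 over all genes. ISG15, a ubiquitin-like modifier, had 93.9 and 96.8 CPM with IFN-γ and 11.7 and 10.4 CPM after addition of AX-0085, a log2 fold change of -3.10 ± 0.11 (SE, edgeR adjusted p = 9.23e-11). MX1, a GTPase that blocks viral replication, had 19.0 and 26.3 CPM with IFN-γ and 2.56 and 1.98 CPM after addition of AX-0085, a log2 fold change of -3.30, and OASL one of -4.00. The groups did not overlap in any of these 3 genes. XAF1, a pro-apoptotic gene of which 38.3% of exon bases overlap another gene, had 175 and 230 counts in the IFN-γ libraries and 4 and 1 counts after addition of AX-0085, a ratio of 98.95-fold (95% counting interval 42.0 to 306).

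Of 19 tested genes of MHC class I presentation, 11 fell and none rose, with a median of -1.31. The largest fall was that of PSMB9, a catalytic subunit of the immunoproteasome, which had 346 and 296 CPM with IFN-γ and 34.9 and 34.8 CPM after addition of AX-0085, a log2 fold change of -3.201 ± 0.08 (SE, edgeR adjusted p = 3.442e-12), and PSMB10, with 39.4% exon overlap, one of -2.86. NLRC5, the transactivator of class I genes, had 87.7 and 88.4 CPM with IFN-γ and 10.6 and 10.8 CPM after addition of AX-0085, a log2 fold change of -3.04 ± 0.08 (SE, edgeR adjusted p = 7.005e-12). The groups did not overlap in PSMB9 or in NLRC5. B2M, the light chain of class I molecules, had 2946 and 2729 CPM with IFN-γ and 947 and 963 CPM after addition of AX-0085, a log2 fold change of -1.57. Among the heavy chains HLA-B and HLA-E fell by 1.49 and 1.31 on the log2 scale, and HLA-C had a log2 fold change of -0.97, short of the 2-fold threshold. The heavy chains are alike in sequence and 47.3% of HLA-B's exon bases overlap another gene, so their separate values are uncertain. Proteasome subunits in general went the same way by less, with 1 of 28 called lower (PSMA4, -1.17) and a median of -0.63, and with 26 of 28 lower at an adjusted p under 0.05 whatever their fold. MHC class II genes were mixed, with 2 of 10 higher and 3 lower. Of these calls, those of HLA-DRA, HLA-DRB1 and RFXAP were lost in DESeq2 and without some single libraries. CIITA, their master regulator, had 18 and 42 counts in the IFN-γ libraries and 3 and 0 counts after addition of AX-0085, a ratio of 24.4-fold (95% counting interval 7.97 to 122), and 21.6% of its exon bases overlap another gene. HLA-DMB, a peptide-exchange chaperone, had 2 and 3 counts in the IFN-γ libraries and 25 and 36 counts after addition of AX-0085, which was 9.99-fold (95% counting interval 4.05 to 31.9) higher.

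Of 13 tested checkpoint and T cell ligand genes only CD274 fell. Its libraries held 104 and 161 counts in the IFN-γ libraries and 14 and 10 counts after addition of AX-0085, or 5.49 and 6.47 CPM with IFN-γ and 0.448 and 0.450 CPM after addition of AX-0085, a log2 fold change of -3.73. The libraries with both treatments lay above the 0.0993 and 0.204 CPM of untreated cells. In the first untreated library 0.0993 CPM is the level of 3 counts, so these values rest on few counts, and no test of this difference is given. LGALS9, which encodes galectin-9, rose by 1.10 on the log2 scale from 0.792 and 0.804 CPM to 1.76 and 1.66 CPM. TNFRSF14 and TNFSF4 were the other 2 genes that rose. TNFSF4, the ligand of OX40, had only 2 and 3 counts with IFN-γ and lost its call in DESeq2 and without some single libraries. CD276, which encodes B7-H3, had 35.6 and 33.6 CPM with IFN-γ and 55.6 and 57.7 CPM after addition of AX-0085, a log2 fold change of 0.71 that did not reach 2-fold.

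**Figure D3:**
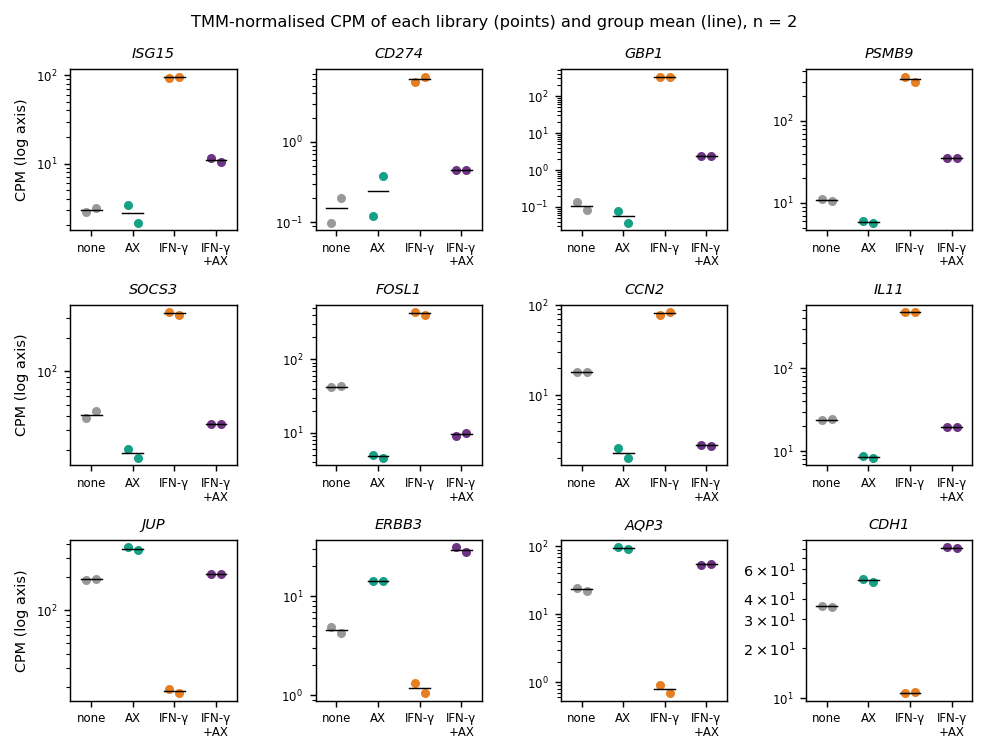
CPM of each library on a log axis (points) with the group mean (line), 2 libraries per group, for 12 genes in untreated cells (none), cells with AX-0085 (AX), with IFN-γ and with both. The 8 genes from ISG15 to IL11 are lower with both than with IFN-γ, and the last 4, JUP, ERBB3, AQP3 and CDH1, are higher.

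Cytokine genes fell as a group, 14 of 20 tested with none higher and a median of -2.63. IL11, a fibrogenic cytokine of the IL-6 family, had 477 and 479.7 CPM with IFN-γ and 19.7 and 19.5 CPM after addition of AX-0085, a log2 fold change of -4.61 ± 0.06 (SE, edgeR adjusted p = 2.561e-14). CXCL8, the neutrophil attractant IL-8, had 189 and 242 counts in the IFN-γ libraries and 4 and 2 counts after addition of AX-0085, a ratio of 87.8-fold (95% counting interval 40.0 to 240.5). CXCL2, another neutrophil chemokine, had 46.5 and 47.5 CPM with IFN-γ and 4.96 and 3.64 CPM after addition of AX-0085, a log2 fold change of -3.42 ± 0.14 (SE, edgeR adjusted p = 2.472e-10). In all 3 the groups were clearly apart. CXCL5, a further neutrophil chemokine of the list, had 376 and 445 CPM with IFN-γ and 22.4 and 21.1 CPM after addition of AX-0085. IL6 had no count in either library with both treatments against 48 and 66 with IFN-γ, and was at least 22.5-fold lower when 3 counts per library were taken as the floor. Of 17 genes of NF-kB subunits and feedback targets 11 fell and none rose, with a median of -1.44. NFKB2, the precursor of p52, had 232 and 213 CPM with IFN-γ and 28.2 and 27.8 CPM after addition of AX-0085, a log2 fold change of -2.99 ± 0.08 (SE, edgeR adjusted p = 4.735e-12), and RELB, its partner in the non-canonical pathway, one of -2.63. TNFAIP3, the feedback inhibitor A20, fell by 1.56 on the log2 scale. NFKBIA, the inhibitor IκBα, had 73.5 and 71.4 CPM with IFN-γ and 77.0 and 72.2 CPM after addition of AX-0085, and its groups overlapped.

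Genes that follow ERK activity fell in large part. Of 26 tested, 15 fell and 2 rose, with a median of -1.35. DUSP6, the phosphatase that switches off ERK, had 33.6 and 36.8 CPM with IFN-γ and 2.11 and 1.35 CPM after addition of AX-0085, a log2 fold change of -4.30 ± 0.16 (SE, edgeR adjusted p = 9.049e-11), with 28.6% of its exon bases shared with another gene. DUSP5 and DUSP4, phosphatases of the same family, fell by 2.32 and 1.43 on the log2 scale. ETV5, an ETS factor, had 146 and 144 CPM with IFN-γ and 14.6 and 15.5 CPM after addition of AX-0085, a log2 fold change of -3.27 ± 0.07 (SE, edgeR adjusted p = 1.641e-12), and SPRY4, an inhibitor of receptor tyrosine kinase signalling, one of -3.76. The 2 that rose were FOS, an AP-1 subunit, with 2.85 and 2.13 CPM with IFN-γ and 17.8 and 11.0 CPM after addition of AX-0085 (2.58), and the ephrin receptor gene EPHA4 (1.81). EGR1, an immediate early gene, had 16.4 and 10.0 CPM with IFN-γ and 9.27 and 3.37 CPM after addition of AX-0085 with wide replicates and was not called. In the EGF family, members moved in both directions. The ligands EREG, HBEGF, NRG1 and AREG fell by 2.74, 2.73, 2.57 and 1.55 on the log2 scale, EREG from 548.9 and 672 CPM to 90.0 and 92.4 CPM. The ligands EGF and BTC, at 1.597 and -0.60, were not called. Among the receptors EGFR fell by 1.06 on the log2 scale and ERBB2 rose by 1.42. ERBB3, a receptor for NRG1, had 1.32 and 1.04 CPM with IFN-γ and 31.3 and 27.9 CPM after addition of AX-0085. Its log2 fold change was 4.66 (edgeR adjusted p = 2.674e-11). FGFR3 and FGFR4, receptors for fibroblast growth factors, rose by 5.57 and 3.23, FGFR4 from 8.98 and 9.29 CPM to 84.8 and 86.6 CPM. Over the whole list of ligands and receptor tyrosine kinases 6 of 29 rose and 9 fell.

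Targets of YAP and TEAD, the effectors of the Hippo pathway, fell in 15 of 25 genes and rose in none, with a median of -1.13. CCN2, a matricellular growth factor whose promoter holds 3 TEAD matches above, had 78.4 and 84.5 CPM with IFN-γ and 2.78 and 2.74 CPM after addition of AX-0085, a log2 fold change of -4.88 ± 0.11 (SE, edgeR adjusted p = 1.503e-12). CCN1, its relative, had 396 and 369.7 CPM with IFN-γ and 26.9 and 26.9 CPM after addition of AX-0085, a log2 fold change of -3.83 ± 0.07 (SE, edgeR adjusted p = 3.903e-13). ANKRD1 and AMOTL2 fell by 4.62 and 2.78 on the log2 scale. The groups did not overlap in any of these 4 genes. Of 28 genes of the actin cytoskeleton and of serum response factor 11 fell and none rose, with a median of -0.75. LIMA1, an actin-bundling protein, had 74.99 and 71.2 CPM with IFN-γ and 17.7 and 18.2 CPM after addition of AX-0085, a log2 fold change of -2.03 ± 0.08 (SE, edgeR adjusted p = 1.632e-10). ACTB had 5779 and 5526 CPM with IFN-γ and 3627 and 3717 CPM after addition of AX-0085, a log2 fold change of -0.62 with no overlap of the groups, and HPRT1 one of -0.75, while RPL13A, the third reference gene of the study, had 0.11.

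Genes of the epithelial-mesenchymal axis and the matrix changed in both directions. ZEB2, a repressor of E-cadherin, had 21.6 and 27.2 CPM with IFN-γ and 4.03 and 3.69 CPM after addition of AX-0085, a log2 fold change of -2.66 ± 0.14 (SE, edgeR adjusted p = 2.896e-09). TGM2, a transglutaminase, had 799 and 837 CPM with IFN-γ and 247 and 253 CPM after addition of AX-0085, a log2 fold change of -1.71, whereas SNAI1, another repressor of E-cadherin, rose by 1.39. Over the list of TGF-beta and epithelial-mesenchymal genes 2 of 25 rose and 7 fell. Collagens and laminins had 7 of 26 higher and 4 lower, among them COL4A4, a basement membrane collagen, at 1.94 and COL12A1 at -1.96. Integrin subunits had 7 of 20 higher and 1 lower. ITGA7, a laminin receptor subunit, rose by 3.25 from 0.475 and 0.322 CPM to 3.96 and 3.46 CPM. ITGAL, listed at 0 in both IFN-γ libraries, was at least 18.3-fold higher. The subunit that fell was ITGA3, at -1.12, and it lost its call when libraries were scaled by size alone.

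Among epithelial genes, CDH1, which encodes E-cadherin, had 10.7 and 10.9 CPM with IFN-γ and 81.8 and 80.7 CPM after addition of AX-0085, a log2 fold change of 2.91 ± 0.08 (SE, edgeR adjusted p = 7.005e-12). It was 7.49-fold higher than with IFN-γ alone and above the 36.2 and 35.8 CPM of untreated cells. JUP, the junction protein plakoglobin, had 19.1 and 17.5 CPM with IFN-γ and 213 and 214 CPM after addition of AX-0085, a log2 fold change of 3.54 ± 0.07 (SE, edgeR adjusted p = 7.023e-13), and TJP3, a tight junction scaffold, one of 5.11. Other members of the list went down. CLDN1, a tight junction claudin, had 341 and 363 CPM with IFN-γ and 67.4 and 66.3 CPM after addition of AX-0085, a log2 fold change of -2.40 ± 0.07 (SE, edgeR adjusted p = 8.402e-12). The keratins KRT15, KRT16 and KRT17 fell by 1.99, 3.95 and 4.58 on the log2 scale, KRT17 from counts of 43 and 40 to 0 and 4. In all, 7 of 22 keratin and junction genes rose and 5 fell. Of the 6 epithelial markers 3 rose, CDH1, EPCAM and KRT19, and the other 3 were not called, with log2 fold changes of -0.22 for KRT7, 0.66 for KRT8 and -0.17 for KRT18. Of 21 genes of airway and secretory identity 8 rose and none fell, with a median of 0.35. The other 13 were not called, among them FOXA2 at 0.03 and MUC1 at -0.06. At an adjusted p under 0.05 whatever their fold, 11 were higher and 4 lower, among the latter TFF1 at -0.94 and KLF5 at -0.74. MUC5AC, a gel-forming airway mucin, had 134 and 128 CPM with IFN-γ and 969.5 and 864 CPM after addition of AX-0085, a log2 fold change of 2.81 ± 0.14 (SE, edgeR adjusted p = 1.841e-09). SPDEF, an ETS factor of goblet cells, had 1 and 1 counts in the IFN-γ libraries and 621 and 385 counts after addition of AX-0085, a ratio of 412-fold (95% counting interval 114 to 3405). EPCAM, at 9 and 7 counts in the IFN-γ libraries and 99 and 60 counts after addition of AX-0085, rose by 2.998 on the log2 scale.

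Genes of regulated secretion and of plasma proteins made up the groups with the highest medians. Of 24 synaptotagmin, RAB and exocytosis genes 14 rose and 1 fell, with a median of 2.02. RAB26, a GTPase of secretory granules, had 0.264 and 0.161 CPM with IFN-γ and 23.7 and 22.1 CPM after addition of AX-0085. Its log2 fold change was 6.77 (edgeR adjusted p = 7.73e-12), and RAB37 rose by 4.36 although 21.6% of its exon bases overlap another gene. RAB3B, another granule GTPase, was the one that fell, from 34.4 and 35.0 CPM to 4.25 and 3.60 CPM. Of 24 fibrinogen and hepatic-type secreted protein genes 18 rose and 2 fell, with a median of 2.14. The 3 fibrinogen chains rose together, FGA by 2.17, FGB by 2.11 and FGG by 2.27 on the log2 scale, FGA from 3.59 and 2.73 CPM to 15.5 and 12.4 CPM. APOH, a plasma glycoprotein, had 0.317 and 0.241 CPM with IFN-γ and 8.54 and 8.95 CPM after addition of AX-0085. Its log2 fold change was 4.97 (edgeR adjusted p = 3.073e-10). Among those that fell was PLAUR, the urokinase receptor of fibrinolysis, at -1.90. Complement genes divided evenly, 5 of 16 higher and 5 lower. Of these calls, that of CD59, which fell, was lost in DESeq2 and without some single libraries. The call of C4BPA, which rose, was lost without the first IFN-γ library. The C1 proteases C1R and C1S fell by 1.97 and 1.66 on the log2 scale, C1S from 770.1 and 711 CPM to 229 and 240.4 CPM, and CFD, the protease of the alternative pathway, rose by 2.51. Of 20 ABC transporter and xenobiotic genes 12 rose and none fell, with a median of 1.14. CYP24A1, the vitamin D 24-hydroxylase, had 523 and 537 CPM with IFN-γ and 2144 and 2123 CPM after addition of AX-0085, a log2 fold change of 2.01 ± 0.07 (SE, edgeR adjusted p = 4.53e-11), and CYP2S1 one of 3.62.

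In lipid metabolism, 8 of 24 genes of cholesterol synthesis and uptake rose and 1 fell. DHCR7, which makes cholesterol from its last precursor, had 15.5 and 17.0 CPM with IFN-γ and 49.5 and 50.4 CPM after addition of AX-0085, a log2 fold change of 1.61 ± 0.07 (SE, edgeR adjusted p = 9.023e-10). MVD, a decarboxylase of the mevalonate pathway, rose by 1.41 from 5.44 and 6.39 CPM to 15.4 and 16.4 CPM. The groups did not overlap in either gene, and ABCG1, a sterol exporter, was the gene that fell, at -1.08, a call lost when libraries were scaled by size alone. In fatty acid synthesis 4 of 12 rose and none fell, the desaturases FADS2 and SCD by 2.06 and 1.23, SCD from 258 and 267 CPM to 640.5 and 591 CPM. Glycolysis had 1 of 22 genes higher and 2 lower. HK2, an inducible hexokinase, had 62.8 and 70.4 CPM with IFN-γ and 3.42 and 4.50 CPM after addition of AX-0085, a log2 fold change of -4.10 ± 0.12 (SE, edgeR adjusted p = 1.985e-11), and PFKP, a phosphofructokinase, fell by 1.197 on the log2 scale, while PFKFB3 rose by 1.36. Of 28 NRF2 targets 3 rose and 1 fell. TKT and AKR1B10, a transketolase and an aldo-keto reductase, rose by 1.63 and 1.12, TKT from 952 and 893 CPM to 2935 and 2781 CPM, and TXNRD1, thioredoxin reductase, fell from 5194 and 5547 CPM to 2331 and 2388 CPM.

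Nuclear genes of the respiratory chain were nearly level, with 1 of 33 called, CYCS, the gene of cytochrome c, at -1.43. The 13 mitochondrially encoded genes had log2 fold changes between 0.45 and 0.89, all with an adjusted p under 0.05 in edgeR and none past 2-fold, as the share of mitochondrial counts above also shows. Cytosolic ribosomal proteins had 1 of 69 called, RPL7A at 1.31, and a median of 0.07. The factors that build ribosomes were lower than this. Of 23, 8 fell, none rose, and all 23 were lower at an adjusted p under 0.05 whatever their fold, with a median of -0.84. DKC1, the pseudouridine synthase dyskerin, had 676 and 639 CPM with IFN-γ and 238 and 245 CPM after addition of AX-0085, a log2 fold change of -1.44 ± 0.06 (SE, edgeR adjusted p = 2.281e-10), and DDX21, a nucleolar helicase, one of -1.49. Of 26 genes of the integrated stress response 8 fell and none rose. ATF3, a stress-induced transcription factor, had 151 and 146 CPM with IFN-γ and 19.5 and 18.6 CPM after addition of AX-0085, a log2 fold change of -2.96 ± 0.09 (SE, edgeR adjusted p = 1.265e-11), and PPP1R15A, which ends the response by directing a phosphatase to eIF2α, one of -2.93. The unfolded protein response had 1 of 20 higher and 2 lower. Among tRNA synthetases 16 of 18 were not called, WARS1, an IFN-γ-inducible enzyme, fell from 1027 and 1035 CPM to 155 and 163 CPM, and QARS1 rose by 2.05. Heat shock genes had 4 of 18 higher and 1 lower, led by HSPA1A and HSPA1B at 2.603 and 2.52, nearly identical copies that reads may not separate. CCT2, a chaperonin subunit, was the gene that fell.

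**Figure D4:**
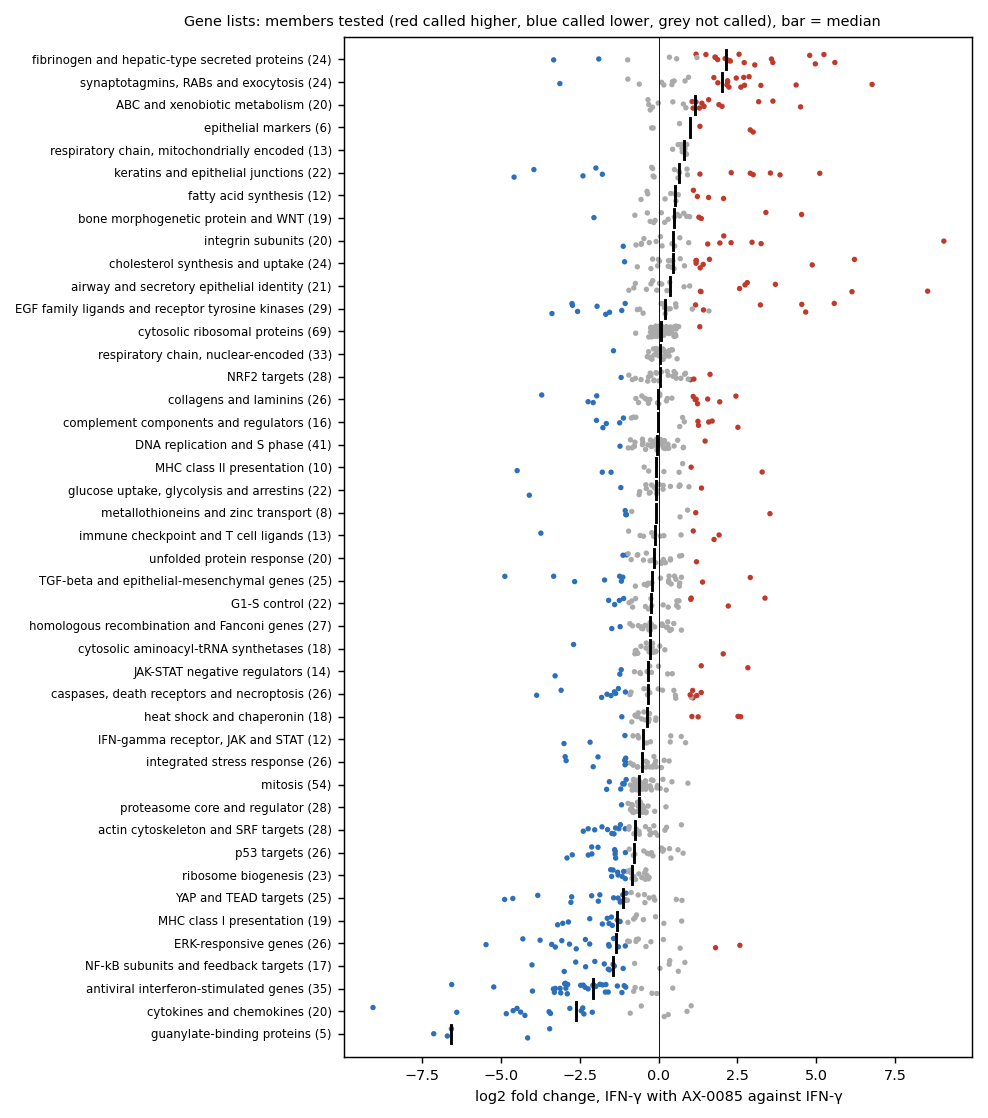
Log2 fold change of cells with both treatments against cells with IFN-γ for the tested members of each gene list (points, number tested in brackets), red where called higher, blue where called lower and grey where not called, with a bar at the median. Guanylate-binding proteins, cytokines and antiviral genes lie at the bottom, and hepatic-type secreted proteins and exocytosis genes at the top.

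Most cell cycle genes were not called, 47 of 54 in mitosis, 39 of 41 in DNA replication and 14 of 22 in G1-S control. In the list of mitosis 7 of 54 genes fell and none rose, with a median of -0.62, and 44 of 54 were lower at an adjusted p under 0.05 whatever their fold. KIF18A, a kinesin of chromosome alignment, had 82.9 and 88.9 CPM with IFN-γ and 27.4 and 27.5 CPM after addition of AX-0085, a log2 fold change of -1.65 ± 0.08 (SE, edgeR adjusted p = 1.893e-09). DNA replication had 1 of 41 higher, LIG1 at 1.47, and 1 lower, ORC6 at -1.22. Homologous recombination and Fanconi genes had 2 of 27 lower, BRCA2 at -1.22 and XRCC3, whose call was lost without either of 2 single libraries. Among 22 genes of G1-S control 4 rose and 4 fell, 36.4% together against 24.8% of all genes. MYC had 356 and 344 CPM with IFN-γ and 118 and 115 CPM after addition of AX-0085, a log2 fold change of -1.58 ± 0.05 (SE, edgeR adjusted p = 5.532e-11), and CDKN1A, the inhibitor p21, one of -1.39, while CDKN2C, the inhibitor p18, rose by 2.21 with 20.4% exon overlap. Of 26 p53 targets 11 fell and none rose, with a median of -0.78. GADD45A, a stress sensor, had 262 and 281 CPM with IFN-γ and 36.1 and 36.5 CPM after addition of AX-0085, a log2 fold change of -2.90 ± 0.08 (SE, edgeR adjusted p = 1.394e-11), and GDF15, a stress-induced cytokine, one of -2.23. Among 26 genes of cell death 5 rose and 9 fell. BCL2A1, BCL2L1 and MCL1, which protect from apoptosis, fell by 3.87, 1.80 and 1.63 on the log2 scale, MCL1 from 384 and 443 CPM to 132 and 134 CPM, with 41.3% exon overlap in BCL2L1. CASP9, the initiator of the mitochondrial pathway, and MLKL, the effector of necroptosis, rose by 1.35 and 1.21, and CASP1, the inflammasome caspase, fell by 3.09.

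Of 19 genes of the BMP and WNT pathways 4 rose and 1 fell. Among those that rose, BMP2 lost its call in 10 of the alternatives, DESeq2 included. AXIN2, a feedback inhibitor of WNT, had 0.211 and 0.241 CPM with IFN-γ and 5.50 and 5.26 CPM after addition of AX-0085. Its log2 fold change was 4.53 (edgeR adjusted p = 2.316e-09), with 25.3% exon overlap, and BMP4 rose by 3.40. GREM1, an antagonist of BMP ligands, fell from 26.0 and 29.4 CPM to 6.04 and 7.51 CPM. Among 8 metallothionein and zinc transport genes 2 rose and 3 fell, MT1F by 3.53 and MT2A at -1.06, though these short genes resemble each other. Of the called genes only MT1F kept its call in every alternative. MT2A lost its call when libraries were scaled by size alone and without the first IFN-γ library. Over all 47 lists, 1180 different genes were named, of which 992 were tested, 83 fell below the filter, 104 were listed at 0 in every library and 1 was not in the table.

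Whether the change with AX-0085 differed between cells with and without IFN-γ was tested by the interaction term, in which the change in cells given IFN-γ is set against the change with AX-0085 in untreated cells. These 2 changes share no library. The interaction was positive for 1826 genes and negative for 974, which is 12.1% and 6.46% of genes tested (18.6% together). In cells without IFN-γ the compound gave 966 genes called higher and 846 called lower (6.41% and 5.62%). A positive value means a change that was higher, or less negative, in the presence of IFN-γ.

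In the interferon groups the change was lower where IFN-γ had been given, with a negative interaction in 23 of 35 antiviral genes and 13 of 19 class I genes. Their medians with AX-0085 alone were 0.24 and 0.04. NLRC5 had 3.08 and 3.67 CPM untreated and 2.91 and 2.86 CPM with AX-0085 alone, and its interaction was -2.82 ± 0.16 (SE, edgeR adjusted p = 2.749e-08). In the integrated stress response 16 of 26 genes had a negative interaction and none a positive one, and the medians had opposite signs, 0.63 with AX-0085 alone and -0.53 upon addition to IFN-γ. SESN2, a stress-induced inhibitor of mTORC1, had 10.3 and 10.8 CPM untreated, 32.4 and 31.4 CPM with AX-0085, 294 and 285 CPM with IFN-γ and 77.1 and 75.7 CPM with both. It thus rose with AX-0085 alone and fell upon addition to IFN-γ, and its interaction was -3.52 ± 0.09 (SE, edgeR adjusted p = 9.739e-11). Of the p53 targets 12 of 26 had a negative interaction and none a positive one.

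Other groups fell with AX-0085 in both settings. YAP and TEAD targets had medians of -0.67 with AX-0085 alone and -1.13 upon addition to IFN-γ, with 8 and 15 of 25 called lower and 5 negative interactions. CCN2 had 18 and 18.3 CPM untreated and 2.59 and 1.995 CPM with AX-0085 alone. Its level with AX-0085 was thus near that of the libraries with both, 2.78 and 2.74 CPM, and its interaction was -1.89 ± 0.18 (SE, edgeR adjusted p = 2.796e-06). ANKRD1 fell by 3.95 with AX-0085 alone and by 4.62 upon addition to IFN-γ on the log2 scale, and its interaction of -0.67 was not called. ERK-responsive genes had 9 of 26 lower and 4 higher with AX-0085 alone, and 13 negative interactions. None of the 23 ribosome biogenesis genes or of the 28 proteasome genes had a called interaction, and their medians with AX-0085 alone were -0.47 and -0.51. MUC5AC rose by 2.56 alone and by 2.81 upon addition to IFN-γ, with an interaction of 0.25 that was not called.

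In other groups the change was higher where IFN-γ had been given. Of 24 exocytosis genes 15 had a positive interaction, and of 24 cholesterol genes 12. The medians of these groups with AX-0085 alone were 0.34 and -0.29. RAB26 had 9.79 and 9.69 CPM untreated, 18.8 and 18.7 CPM with AX-0085, 0.264 and 0.161 CPM with IFN-γ and 23.7 and 22.1 CPM with both. Its only low libraries were those with IFN-γ alone, and the interaction was 5.82 (edgeR adjusted p = 1.869e-09). DHCR7 had 119 and 119 CPM untreated, 77.8 and 73.8 CPM with AX-0085, 15.5 and 17.0 CPM with IFN-γ and 49.5 and 50.4 CPM with both, and an interaction of 2.26 ± 0.10 (SE, edgeR adjusted p = 2.765e-09). In mitosis and DNA replication the positive interactions, 17 of 54 and 21 of 41 genes, came with larger falls when AX-0085 was given alone. There 49 and 24 genes were called lower and the medians were -1.46 and -1.17. With IFN-γ alone against untreated cells 10 and 27 genes were already called lower, with medians of -0.54 and -1.21. Summed CPM of the replication genes was 5389 and 5632 untreated and 2470 and 2342 with IFN-γ. It was 2420 and 2443 with AX-0085 and 2067 and 2101 with both.

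**Figure D5:**
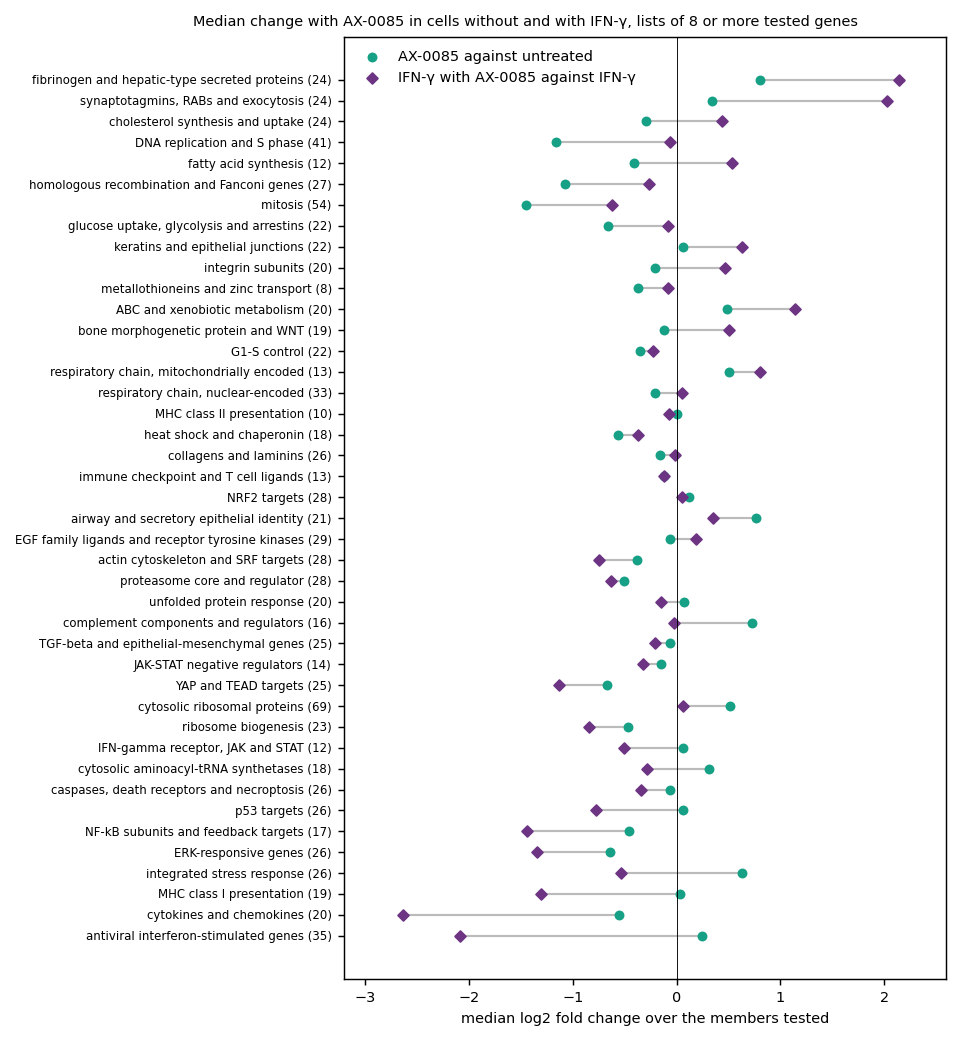
Median log2 fold change of the tested members of each gene list with AX-0085 against untreated cells (green circles) and with both treatments against IFN-γ (purple diamonds), ordered by the median interaction, with the number tested in brackets. Antiviral genes have a median of 0.24 without IFN-γ and of -2.08 with it, and mitosis is lower without IFN-γ (-1.46) than with it (-0.62).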

How the data were processed

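RNA of A549 cells was sequenced from 8 libraries, 2 in each of 4 groups. Per the paper's methods and the submitters' processing notes, the authors made FASTQ files with bcl2fastq 2.20, trimmed them with Trim Galore 0.6.7, mapped them to GRCh38 with STAR 2.7.9a and counted them with featureCounts, and the deposited values are whole-number counts per gene without normalization. The annotation release and strand setting used for counting are not given in the sources used here. If strand was not used, reads of overlapping genes cannot be told apart, which concerns the 29.7% of tested genes with over 5% of exon bases inside another GENCODE 44 gene.

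From the counts, genes were filtered (filterByExpr), scaled by TMM and tested by the quasi-likelihood method of edgeR 4.0.16 (R 4.3.3) in a single model of all 8 libraries and 4 groups, with no covariates and with Benjamini-Hochberg adjustment over 15066 genes. A called gene had an adjusted p under 0.05 and a fold over 2. Standard errors are the fold change divided by the root of the F statistic. Where a group holds few counts they can be smaller than counting error alone. They were therefore left out for AQP3, ARRB1, CCBE1, ERBB3, RAB26, APOH and AXIN2. No set test was run, and each list is described by its counts and median beside those of all genes. The 2 tested list genes with no count in a group did not move a list median when set to their bound. Ratios of genes with few counts have exact 95% intervals for counting error only. The floors of 3 counts per library also cover counting error only and carry no interval. The common biological coefficient of variation was 0.0609, and the 2 libraries of a group differed by more than sampling noise (chi-square per degree of freedom 20.3 with IFN-γ and 27.7 with both).

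The genes and lists were chosen with earlier results of these data known. The genes named were CD274, JAK1, JAK2 and 3 reference genes, the 15 largest rises and falls among called protein-coding genes whose mean log2 CPM was 2 or more over the 4 libraries compared and whose groups did not overlap, up to 4 called members per list and direction, and further members of lists described as a group. Also named were the 5 largest called interactions each way among protein-coding genes with that mean level over all 8 libraries, without a limit on overlap. Results for some of these genes are not reported here. Alternatives were the DESeq2 1.42.0 Wald test, its size factors, library size alone, 2 other low-count filters, a fit of the compared groups only, the adjusted p without a fold, a replicate block and leaving out each library. A test against a 2-fold change was added after seeing the data. The procedure was tested on simulated data.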

Additional observations from a re-analysis of the deposited data

Results flagged for a closer look

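The change with AX-0085 differed between cells with and without IFN-γ, by edgeR's interaction test, for 1826 genes in the positive and 974 in the negative direction. Genes with large differences are given with their values. They were taken from protein-coding genes with a called interaction whose mean log2 CPM was 2 or more over all 8 libraries. TXNIP, an arrestin-like inhibitor of glucose uptake, had the lowest of these interactions, -6.87 on the log2 scale, with 1 and 4 counts in untreated cells, 9.12 and 9.52 CPM with AX-0085, 24.4 and 27.9 CPM with IFN-γ and 20.8 and 22.9 CPM with both. It rose by 6.60 on the log2 scale with AX-0085 alone, and its change upon addition to IFN-γ, -0.27, was not called. BATF2, an interferon-induced transcription factor, had an interaction of -5.17, NIBAN1, a stress-induced protein, one of -4.22, MXD1, a MYC antagonist, one of -4.03, and PSMB10 one of -3.76. These 4 genes fell when AX-0085 joined IFN-γ, and of them NIBAN1 rose with AX-0085 alone.

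Large positive interactions were those of SPDEF at 6.30, RAB26 at 5.82, SYT12, a synaptotagmin, at 4.84 and KRT4, a keratin of stratified epithelium, at 4.81. SPDEF had 1 count in each IFN-γ library, so that its fitted value depends on the prior count. SYT12 had 12.1 and 13.6 CPM untreated, 2.99 and 3.54 CPM with AX-0085, 1.58 and 1.45 CPM with IFN-γ and 10.0 and 12.2 CPM with both, and fell with AX-0085 alone while it rose upon addition to IFN-γ. KRT4 had 29.4 and 28.2 CPM untreated, 14.7 and 15.1 CPM with AX-0085, 0.264 and 0.201 CPM with IFN-γ and 3.13 and 3.64 CPM with both.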

How the results depend on the processing

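The count of genes called moved most with the criterion for a call. With the adjusted p alone, 5079 genes were higher and 4940 lower, and 4025 interactions were positive and 3552 negative. With edgeR's glmTreat, added after the data had been seen and testing for changes beyond 2-fold, 1349 were higher and 722 lower, and 748 interactions were positive and 372 negative. With at least 10 counts in every library 1568 genes were higher, by construction over fewer genes. DESeq2 called 2091 higher and 1224 lower. Scaling by library size alone raised the median of all genes by 0.12 on the log2 scale, and called 2859 higher and 990 lower, so that 74.3% of calls were higher against 66.6% with TMM. With each library left out in turn, between 2239 and 2539 genes were higher and between 1220 and 1307 lower, and between 1586 and 1783 interactions were positive and between 873 and 1046 negative.

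The replicate numbers of the labels were checked for pairing. After the group means were subtracted, same-numbered libraries of the IFN-γ group and the group with both correlated across genes at -0.03, and the numbers were not used as pairs. With the replicate number as a block, 2456 genes were higher and 1237 lower, and 1770 interactions were positive and 968 negative. None of the alternatives reversed the direction of a called named gene. Of the values of single named genes under all alternatives, 3701 kept their call or lack of one, 105 lost a call and 12 gained one. Of the counts and medians of the gene lists, 286 moved by more than 1.5 times or by more than the spread between replicates, and 1958 did not. The cause was not tested.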
